A study of Mus musculus with 14 samples.

Results

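Troponins and tropomyosins are the proteins through which calcium switches the thin filament of striated muscle on and off. The members are the slow isoforms Tnnt1, Tnni1, Tnnc1 and Tpm3, the fast isoforms Tnnt3, Tnni2, Tnnc2 and Tpm1, the cardiac isoform Tnnt2, and Tpm2, which fast and slow fibres share. They were taken by gene symbol from a table of 49671 genes, in which all 10 were present, and all 10 passed the filter on low counts. RNA sequencing was done on C2C12, an immortalized line of mouse myoblasts, with 2 libraries in each of 7 groups. In medium DM3, sampled at day 2 and day 7, the cells received 2% horse serum together with an adipogenic mixture of 1 µg/ml insulin, 0.5 mM 3-isobutyl-1-methylxanthine, 0.5 µM dexamethasone and 2 µM rosiglitazone. Medium DM2, sampled on the same days, paired the same mixture with 10% fetal calf serum (FCS). Medium DM1, also sampled on both days, had 2% horse serum and no mixture. The day 0 cells were in growth medium with 20% FCS before any change of medium. All groups come from 1 cell line, so they describe that line and not muscle tissue.

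Tropomyosin is a coiled coil that lies along actin and covers the sites where myosin binds. Troponin sits on it as a complex of a tropomyosin-binding subunit (troponin T), an inhibitory subunit (troponin I) and a calcium sensor (troponin C), and calcium bound to troponin C lets tropomyosin move off those sites. Fast, slow and cardiac muscle use different genes for these subunits, the cardiac troponin T gene Tnnt2 is also used by embryonic and regenerating skeletal muscle, and the tropomyosin genes give cytoskeletal forms in non-muscle cells too, which a count per gene does not separate.

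Library totals were 21907600 to 29784900 estimated counts, and the members held 0.0894 to 1.10% of them. Desmin and the other muscle markers were present in every group (6 of 6 markers, summed level 4177 to 4356 CPM, counts scaled to 1000000 per library, in DM3 day 7 and 1164 to 2519 CPM elsewhere), so the markers of the labelled cell type were met. The 8 adipocyte markers summed to 13.1 to 28.5 CPM, of which Pparg made 55.9 to 99.3%, with 2 to 7 of the 8 detected in a group, Lep at 0 in every group and Adipoq at 0 in all but DM2 and DM1 at day 7. The 6 cardiomyocyte markers summed to 74.0 to 78.1 CPM in DM3 day 7 and 32.2 to 75.8 CPM elsewhere, with 4 or 5 of the 6 detected, Gata4 as the most abundant, Nppa at 0 in every group and Tbx5 at 0 in all but DM2 at day 7. The 5 smooth muscle markers, led by Acta2, summed to 2203 to 2437 CPM in DM3 day 7 and 363 to 949 CPM elsewhere. Acta2 made 92.5% of the sum in DM3 day 7, with a mean of 2146 CPM, against means of 196 to 745 CPM elsewhere. The higher sum in DM3 day 7 was thus largely that of Acta2. The part of these markers in the results was not tested. In 3 libraries (DM3 day 2 replicate 2, DM1 day 2 replicate 1 and day 0 replicate 1) pseudogenes held 1.99 to 2.54% of the counts. In the other library of each of these groups they held 3.86 to 4.30%. Without the 3 libraries, which leaves a single library in each of these groups, fewer members were called at day 2 against day 0. Fewer were also called at day 2 in DM3 against DM1, DM3 against DM2 and DM2 against DM1. The same held for day 7 against day 2 in DM3 and DM1, and for the day difference of DM2 against DM1. Over all genes tested, fewer were called in each of these comparisons as well.

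In DM3 at day 7, 9 of the 10 members were higher than in any other group, while Tpm3 was lower than in any other group. Of all genes tested, 22.7% were called higher and 25.1% lower in DM3 than in DM1 at day 7. Against DM2 at day 7, 27.5% were called higher and 25.2% lower in DM3. The share of all genes with their highest or lowest mean in a given group was not computed. The members together gave 12349 and 11055 CPM in the DM3 day 7 libraries, against 843 to 1627 CPM in the other 12. Day 0 had the lowest mean of 7 members, whereas Tnnt2 was lowest in DM2 at day 2 and Tpm1 in DM1 at day 7. CPM values use library sizes scaled by the trimmed mean of M-values (TMM). Fold changes with their standard errors (SE) and p-values come from the quasi-likelihood test of edgeR, adjusted after Benjamini and Hochberg over the 15973 genes tested and called at 0.05. In these bulk samples, fewer cells of a type and less RNA per cell cannot be told apart. Nothing in the labels says that the 2 replicates of a group were grown separately, so a p-value here reflects only how far libraries of a group spread, and that spread may be technical.

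**Figure D1:**
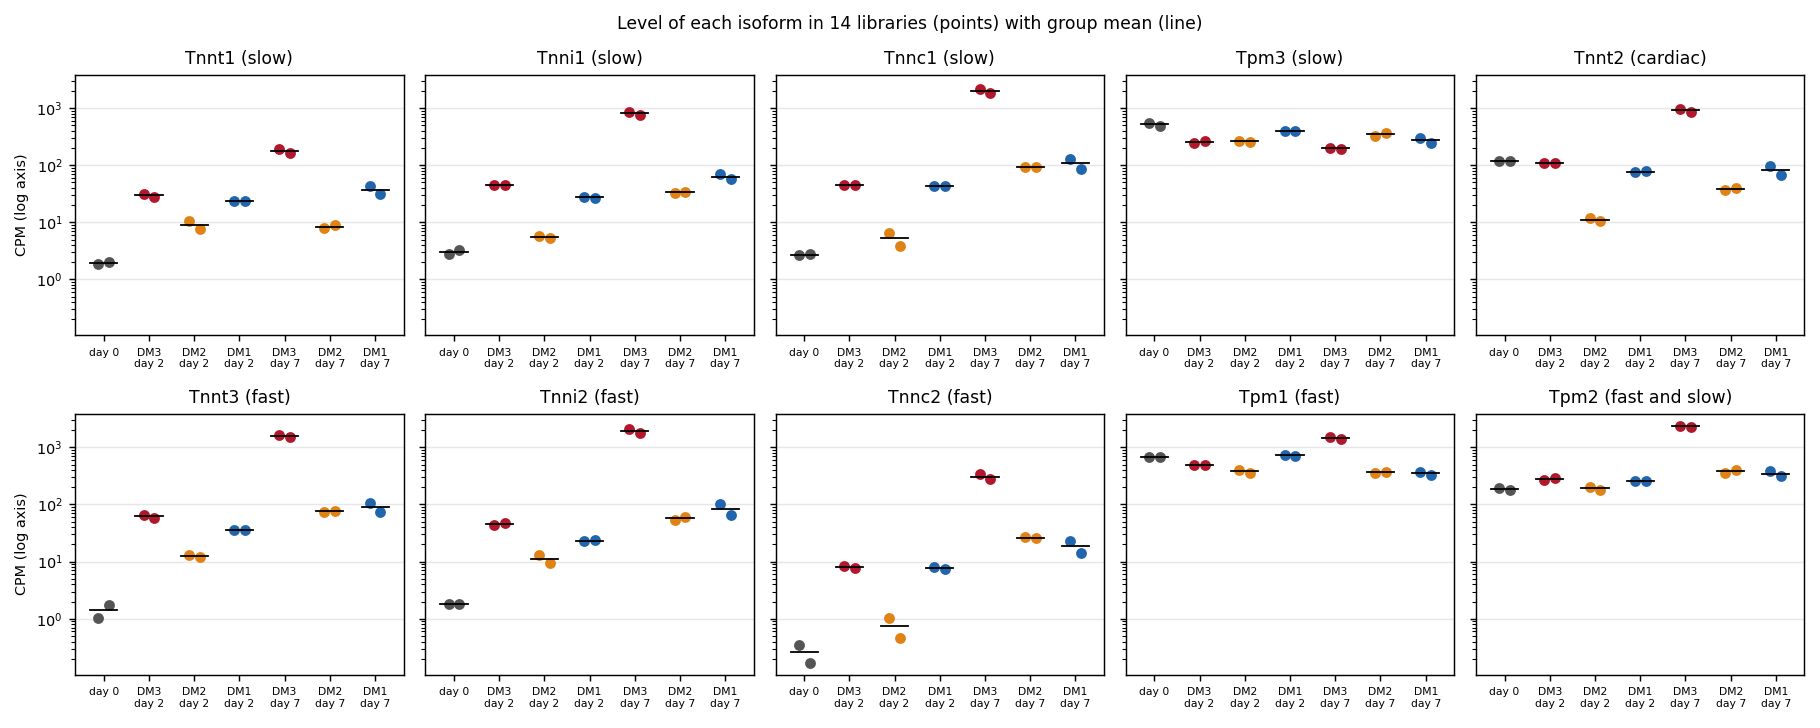
Level of each of the 10 isoforms in CPM (log axis) in the 14 libraries, grouped by medium and day; points are libraries and lines are means of 2. All troponin panels are highest in DM3 day 7, where Tnnc1 reached 2133 and 1856 CPM, while Tpm3 is highest at day 0, at 543 and 490 CPM.

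The stretches around the transcription start of 4 of these genes are shown because they moved differently against day 0: Tnnc1, Tnnc2 and Tnni1 rose in all 6 comparisons with day 0, and Tnnt2 fell in 4 of the 6. Several of these calls in DM2 and DM1 depended on single libraries, as given below. Sequences are from RefSeq on GRCm38.p6, each of 300 bases, from 250 before to 50 after the start, 5′ to 3′ on the gene's strand. Capitals mark the E-box letters CAGCTG, a form bound by the myogenic factors, and the letters CATTCC or their reverse complement GGAATG, the core of the M-CAT element first described in the chicken cardiac troponin T gene.
Tnnt2, chr1:135836084-135836383 (+): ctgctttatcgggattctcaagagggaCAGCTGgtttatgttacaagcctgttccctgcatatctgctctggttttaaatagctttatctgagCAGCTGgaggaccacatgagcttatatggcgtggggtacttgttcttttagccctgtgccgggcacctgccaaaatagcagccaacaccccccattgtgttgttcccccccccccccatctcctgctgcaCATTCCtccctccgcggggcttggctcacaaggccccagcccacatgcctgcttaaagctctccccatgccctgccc
Tnni1, chr1:135799171-135799470 (+): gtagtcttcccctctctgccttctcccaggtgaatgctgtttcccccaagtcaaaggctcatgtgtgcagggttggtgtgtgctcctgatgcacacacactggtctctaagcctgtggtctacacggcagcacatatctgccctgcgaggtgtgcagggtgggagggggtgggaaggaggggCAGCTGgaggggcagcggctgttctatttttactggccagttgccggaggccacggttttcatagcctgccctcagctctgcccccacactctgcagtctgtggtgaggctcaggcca
Tnnc1, chr14:31208062-31208361 (+): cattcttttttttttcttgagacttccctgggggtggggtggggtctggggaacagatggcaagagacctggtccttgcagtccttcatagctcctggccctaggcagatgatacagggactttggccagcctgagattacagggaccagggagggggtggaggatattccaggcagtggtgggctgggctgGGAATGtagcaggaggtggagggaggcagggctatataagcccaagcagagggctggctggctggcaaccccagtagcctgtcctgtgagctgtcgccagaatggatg
Tnnc2, chr2:164779685-164779984 (-): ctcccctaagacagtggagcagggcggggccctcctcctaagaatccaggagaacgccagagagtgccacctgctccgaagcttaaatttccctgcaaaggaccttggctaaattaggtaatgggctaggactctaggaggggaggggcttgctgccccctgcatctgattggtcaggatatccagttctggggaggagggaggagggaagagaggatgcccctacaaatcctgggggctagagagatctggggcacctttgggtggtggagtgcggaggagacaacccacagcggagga

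RefSeq start windows matched 8 of the 10 members (all but Tnnt3 and Tnni2), with 11 windows in all. Searched on both strands, CAGCTG occurred in a window of 4 of the 8 (Tnni1, Tnnt2, Tpm2 and Tpm3), against 18.3% of 27025 genes with a window. By window it was in 5 of 11, of which 2 are overlapping Tnni1 windows with the same site, against 16.3% of 32851. Counted from the start, it begins at -223 and -157 in Tnnt2 and at -68 in the Tnni1 window shown. CATTCC occurred in 3 of the 8, at -27 in Tnnt2, -56 in Tpm1 and -58 in Tnnc1, against 16.6% of genes, and in 3 of 11 windows, against 14.7% of all windows. Neither the MEF2 site (3.19% of all windows) nor the CArG box (1.63%) was found in any window of these 8 genes, which says only that those letters are not in these windows. None of the motifs searched overlaps another in the 4 windows printed. Tpm3, which fell against day 0, and Tnni1, which rose, both have a window with CAGCTG.

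Troponin T was mostly the fast form per kb in all 3 media at day 7 and mostly the cardiac form at day 0. Tnnt3 encodes fast skeletal troponin T (chr7:142498836-142516009, + strand, GRCm38, Gencode vM21, as for all gene spans here). It had 1.05 and 1.77 CPM at day 0. At day 2 it had 64.4 and 59.0 CPM in DM3, 13.1 and 12.2 CPM in DM2 and 35.5 and 36.0 CPM in DM1. At day 7 it had 1635 and 1517 CPM in DM3, 74.5 and 76.5 CPM in DM2 and 105 and 74.6 CPM in DM1. Both DM3 day 7 libraries were far above all others, and the DM2 and DM1 libraries overlapped at day 7 only. The log2 fold change of DM3 day 7 against day 0 was 10.12 ± 0.27 (SE, edgeR adjusted p = 1.42e-10).

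Tnnt1 encodes slow skeletal troponin T (chr7:4504570-4516382, - strand). Its day 0 libraries held 1.85 and 2.01 CPM. Day 2 gave 31.4 and 27.6 CPM in DM3, 10.7 and 7.56 CPM in DM2 and 23.4 and 23.3 CPM in DM1. Day 7 gave 194 and 160 CPM in DM3, 7.90 and 8.91 CPM in DM2 and 43.8 and 31.1 CPM in DM1. Tnnt1 was the troponin gene with the smallest excess of DM3 over DM1 at day 7, with a log2 fold change of 2.24 ± 0.18 (edgeR adjusted p = 2.43e-06). In DM2 its libraries overlapped between day 7 and day 2, at a log2 fold change of -0.12 ± 0.19 (edgeR adjusted p = 0.632).

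Tnnt2, the cardiac troponin T gene (chr1:135836354-135852260, + strand), was the one troponin already abundant at day 0. It had 117 CPM in each of the 2 libraries at day 0. At day 2 it had 109 and 110 CPM in DM3, 11.7 and 10.3 CPM in DM2 and 76.9 and 78.0 CPM in DM1. At day 7 it had 969 and 862 CPM in DM3, 36.5 and 39.1 CPM in DM2 and 97.8 and 66.7 CPM in DM1. Only DM3 day 7 exceeded day 0, and every DM2 library was below every library of the other media and of day 0. The log2 fold change against day 0 was -3.40 ± 0.16 in DM2 at day 2 (edgeR adjusted p = 2.27e-08) and 2.97 ± 0.15 in DM3 at day 7 (edgeR adjusted p = 6.68e-09). For DM3 at day 2 it was -0.09 ± 0.14 (edgeR adjusted p = 0.622).

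As shares of the troponin T level per kb of exon, Tnnt2 made 9.88 ± 0.22% in DM3, 8.65 ± 0.20% in DM2 and 12.6 ± 0.3% in DM1 at day 7, against 89.5 ± 2.0% at day 0 (SD, n = 2, as for all shares here). Tnnt3 made 83.4 ± 0.7% in DM3, 84.6 ± 0.6% in DM2 and 67.3 ± 0.3% in DM1 at day 7, against 5.26 ± 1.81% at day 0. The fast form was thus the most abundant troponin T per kb in all 3 media at day 7, in DM3 as in DM2, although the summed troponin T level was 1194 ± 73 CPM per kb in DM3 and 56.4 ± 1.4 CPM per kb in DM2. Tnnt1 held 6.72 ± 0.50% in DM3, 6.76 ± 0.40% in DM2 and 20.2 ± 0.1% in DM1 at day 7. The shares depend on the length used: without a length correction Tnnt2 made 34.3 ± 0.5% in DM3, 31.1 ± 0.5% in DM2 and 39.2 ± 0.7% in DM1 at day 7, still below Tnnt3 in DM3 and DM2 (59.1 ± 0.9% and 62.0 ± 0.9%) and in DM1 (42.9 ± 0.5%). At day 2 that choice put Tnnt2 first in DM3 and DM1, at 54.6 ± 1.8% and 56.7 ± 0.2%.

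**Figure D2:**
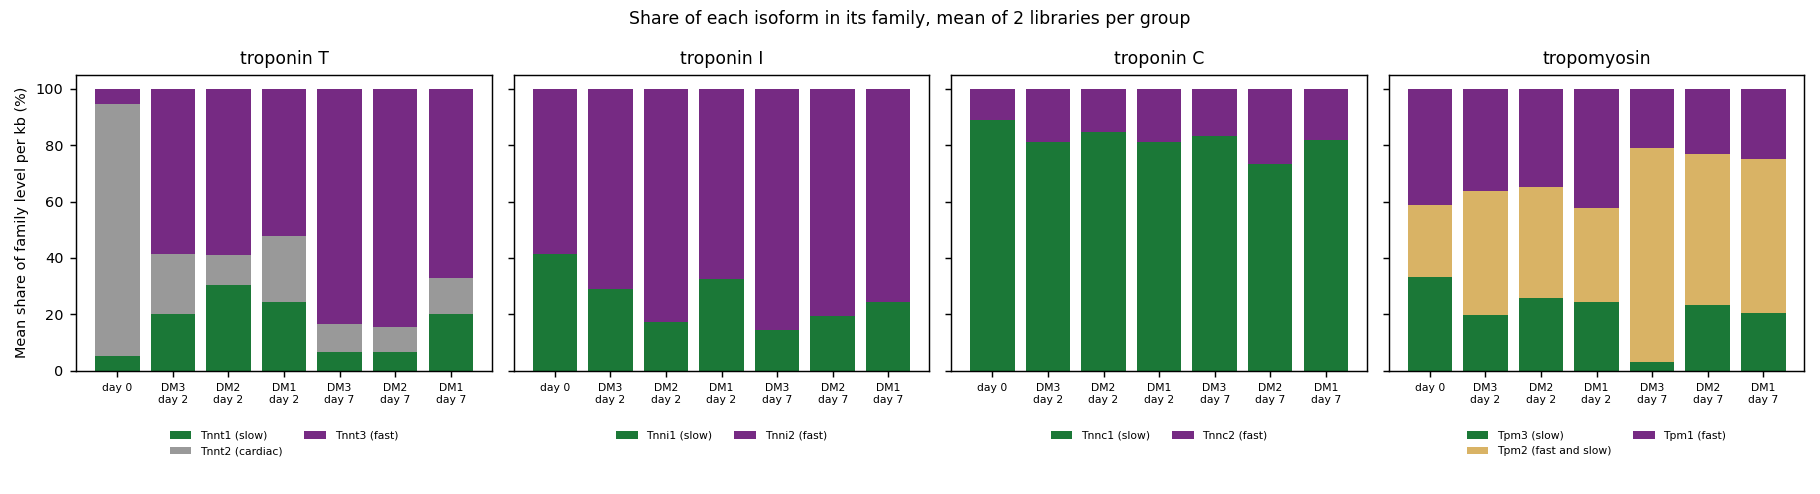
Mean share (%) of each isoform in the summed level per kb of exon of its family, by medium and day (2 libraries per group). Tropomyosin shares are of Tpm1, Tpm2 and Tpm3, without Tpm4. The grey Tnnt2 block covers 9.88% in DM3 day 7 and 89.5% at day 0, while the green Tnnc1 block makes 73.3 to 89.1% of every group.

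Troponin I changed toward the fast form as well, from a more even start. Tnni2 encodes fast skeletal troponin I (chr7:142441808-142444410, + strand), and its day 0 libraries gave 1.78 and 1.81 CPM. At day 2 the values were 43.9 and 47.0 CPM in DM3, 13.0 and 9.31 CPM in DM2 and 22.8 and 24.0 CPM in DM1. At day 7 they were 2124 and 1808 CPM in DM3, 54.3 and 60.9 CPM in DM2 and 102 and 65.2 CPM in DM1. No group overlapped another, and the log2 fold change of DM3 day 7 against DM1 day 7 was 4.55 ± 0.23 (edgeR adjusted p = 1.03e-07), the largest among the members.

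Tnni1 encodes slow skeletal troponin I (chr1:135779434-135810989, + strand). It had 2.76 and 3.34 CPM at day 0. Day 2 libraries held 45.5 and 44.5 CPM in DM3, 5.77 and 5.34 CPM in DM2 and 28.2 and 26.2 CPM in DM1. Those of day 7 held 864 and 753 CPM in DM3, 33.0 and 33.7 CPM in DM2 and 69.4 and 56.4 CPM in DM1. All 7 groups were separate, in the order DM3 day 7, DM1 day 7, DM3 day 2, DM2 day 7, DM1 day 2, DM2 day 2 and day 0. Against day 0 the log2 fold change was 8.05 ± 0.15 in DM3 day 7 (edgeR adjusted p = 6.11e-12).

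Per kb, Tnni2 held 85.4 ± 0.2% of troponin I in DM3, 80.6 ± 1.0% in DM2 and 75.8 ± 3.1% in DM1 at day 7, against 58.7 ± 3.0% at day 0. Without the length correction Tnni1 led in DM1 at day 2, with 53.8 ± 2.1%, and at day 0, with 62.8 ± 2.9%, and at day 7 Tnni2 still led in all 3 media. The cardiac troponin I gene Tnni3 stayed rare. It had 6.30 and 5.22 CPM in DM3 day 7, against 3 counts and 1 count in the day 0 libraries, a ratio of 83.4 with a 95% interval of 32.2 to 308 from counting error.

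Troponin C differed from the other subunits in that the slow form prevailed everywhere. Tnnc1 encodes the troponin C of slow and cardiac muscle (chr14:31208312-31211729, + strand), with 2.69 and 2.76 CPM at day 0. At day 2 it reached 44.4 and 44.8 CPM in DM3, 6.53 and 3.89 CPM in DM2 and 42.6 and 42.8 CPM in DM1. At day 7 it reached 2133 and 1856 CPM in DM3, 92.2 and 93.7 CPM in DM2 and 129 and 86.5 CPM in DM1. The DM2 libraries at day 7 lay inside the range of the DM1 ones, and at day 2 they lay well below both other media. The log2 fold change of DM3 day 7 against day 0 was 9.51 ± 0.31 (edgeR adjusted p = 2.21e-09).

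Tnnc2 encodes fast skeletal troponin C (chr2:164777161-164779967, - strand) and was the scarcest member at day 0, with 10 and 5 counts, or 0.349 and 0.170 CPM. It had 8.41 and 7.63 CPM in DM3, 1.04 and 0.458 CPM in DM2 and 7.89 and 7.54 CPM in DM1 at day 2. It had 335 and 282 CPM in DM3, 26.5 and 25.5 CPM in DM2 and 23.1 and 14.3 CPM in DM1 at day 7. DM3 and DM1 overlapped at day 2, and DM2 was the lowest of the media at day 2 and above both DM1 libraries at day 7. The log2 fold change of DM3 day 7 against day 0 was 10.19 ± 0.40 (edgeR adjusted p = 1.95e-08), and 10.78 without day 0 replicate 1. The rise in DM2 at day 2, 1.51 ± 0.55 (edgeR adjusted p = 0.0475), was no longer called without day 0 replicate 1 (2.09, adjusted p = 0.0595), day 0 replicate 2 (1.08, adjusted p = 0.229) or DM2 day 2 replicate 1 (0.76, adjusted p = 0.369). Nor was it called with no low-count filter (adjusted p = 0.117), with only the 2 groups fitted (adjusted p = 0.0943) or without the low-pseudogene libraries (adjusted p = 0.11).

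Tnnc1 held 83.3 ± 0.3% of troponin C per kb in DM3 at day 7, 73.3 ± 0.8% in DM2 and 81.7 ± 0.9% in DM1, and 89.1 ± 5.0% at day 0. In log2, Tnnc1 over Tnnc2 was 2.31 ± 0.03 in DM3, 1.46 ± 0.06 in DM2 and 2.16 ± 0.08 in DM1 at day 7, so that DM2 then had the lowest ratio of slow to fast troponin C. Tnnt1 over Tnnt3 was -3.63 ± 0.12 in DM3, -3.65 ± 0.10 in DM2 and -1.74 ± 0.00 in DM1 at day 7. At day 7 both media with the adipogenic mixture thus had a lower ratio of slow to fast troponin T than DM1, and their libraries did not overlap those of DM1. At day 2 the ratio was -1.54 ± 0.04 in DM3, -0.96 ± 0.29 in DM2 and -1.09 ± 0.02 in DM1, with DM2 overlapping DM1, and Tnnc1 over Tnnc2 was 2.10 ± 0.11 in DM3, 2.49 ± 0.31 in DM2 and 2.09 ± 0.05 in DM1, highest in DM2. For troponin I the day 7 log2 ratios were -2.55 ± 0.02 in DM3, -2.05 ± 0.09 in DM2 and -1.65 ± 0.25 in DM1, again without overlap. No test of these ratios was run.

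**Figure D3:**
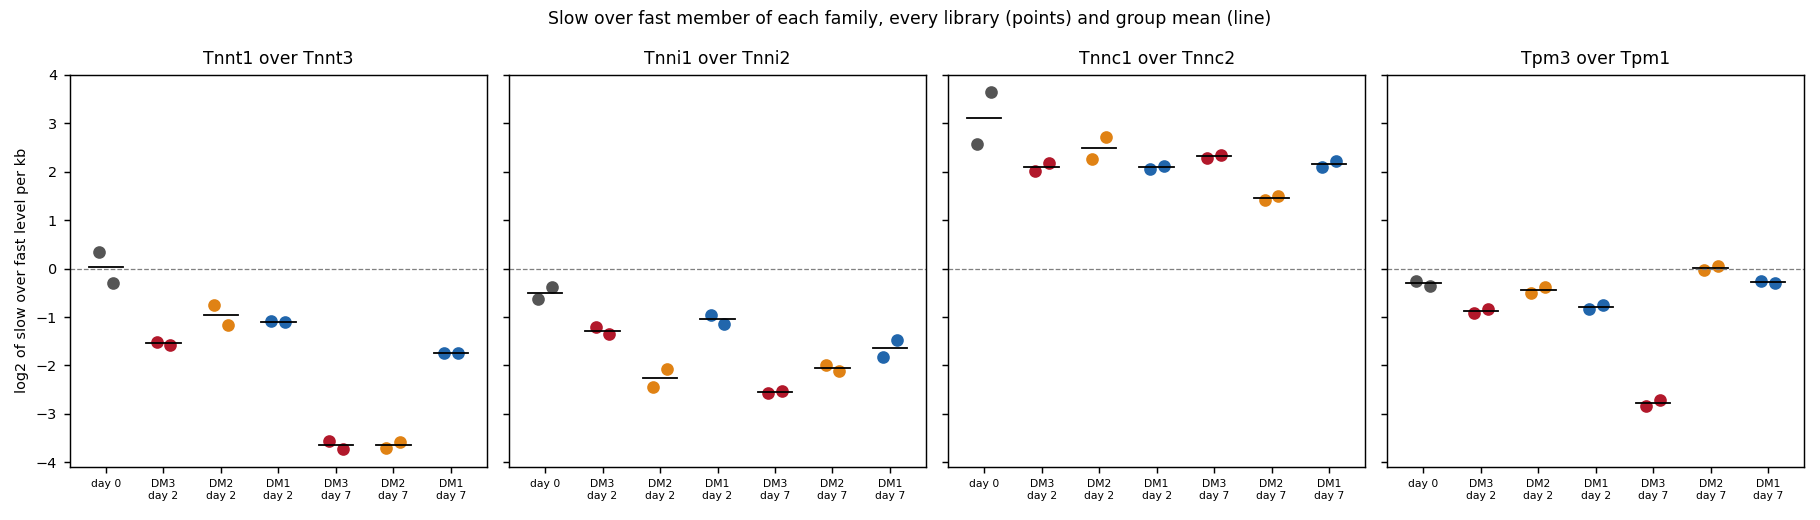
Log2 of the slow over the fast member per kb of exon in every library (points) with the mean of 2 (line); the dashed line marks equal levels. Troponin I is below it and troponin C above it in all 14 libraries, troponin T is below it in every library at day 2 and day 7, and Tpm3 over Tpm1 drops to -2.78 in DM3 day 7.

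The tropomyosins were abundant before differentiation and moved in different directions. Tpm2, the beta tropomyosin gene (chr4:43514711-43523765, - strand), had 198 and 182 CPM at day 0. At day 2 it gave 265 and 285 CPM in DM3, 203 and 178 CPM in DM2 and 253 and 258 CPM in DM1. At day 7 it gave 2393 and 2245 CPM in DM3, 355 and 407 CPM in DM2 and 384 and 313 CPM in DM1. DM2 at day 2 overlapped day 0, and DM2 and DM1 overlapped at day 7, whereas DM3 day 7 was above every other library. Its log2 fold change was 3.61 ± 0.12 for DM3 day 7 against day 0 (edgeR adjusted p = 2.68e-10).

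Tpm1, the alpha tropomyosin gene (chr9:67022590-67049406, - strand), had 687 and 668 CPM at day 0. Day 2 values were 500 and 500 CPM in DM3, 403 and 357 CPM in DM2 and 747 and 716 CPM in DM1. Day 7 values were 1505 and 1376 CPM in DM3, 355 and 375 CPM in DM2 and 374 and 326 CPM in DM1. Tpm1 was below day 0 in DM2 and DM1 at day 7, in libraries that overlapped each other, and above it in DM3. The log2 fold changes against day 0 at day 7 were 1.09 ± 0.09 in DM3, -0.89 ± 0.09 in DM2 and -0.95 ± 0.09 in DM1 (edgeR adjusted p = 6.25e-07, 4.47e-06 and 3.14e-06).

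Tpm3, the gene of slow muscle tropomyosin and of widely expressed cytoskeletal forms (chr3:90072649-90100902, + strand), was highest at day 0, with 543 and 490 CPM. At day 2 it had 248 and 263 CPM in DM3, 267 and 259 CPM in DM2 and 390 and 400 CPM in DM1. At day 7 it had 197 and 196 CPM in DM3, 328 and 366 CPM in DM2 and 293 and 248 CPM in DM1. Every library in a differentiation medium was below both day 0 libraries. The log2 fold change against day 0 at day 7 was -1.39 ± 0.10 in DM3 (edgeR adjusted p = 1.11e-07), -0.57 ± 0.10 in DM2 (edgeR adjusted p = 0.000261) and -0.93 ± 0.10 in DM1 (edgeR adjusted p = 5.69e-06). Its related sequence Tpm3-rs7 can share reads with it and held 1.25 to 44.4 CPM, and Tpm3-rs2 had no count. With the counts of both added, Tpm3 was called or not called as before in all 18 comparisons.

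Of the summed level per kb of Tpm1, Tpm2 and Tpm3, Tpm2 held 75.8 ± 0.2% in DM3 at day 7. Its share was 53.6 ± 0.9% in DM2 and 54.8 ± 0.9% in DM1 at day 7, and 25.6 ± 0.3% at day 0. Tpm3 held 3.07 ± 0.13% in DM3, 23.3 ± 0.0% in DM2 and 20.4 ± 0.2% in DM1 at day 7, and 33.3 ± 0.8% at day 0. The sum itself was 1051 ± 50 CPM per kb in DM3 day 7 and 255 ± 12 CPM per kb at day 0. It leaves out Tpm4, which had 161 ± 9 CPM per kb in DM3 day 7 and 502 ± 5 CPM per kb at day 0. At day 7 Tpm4 had 313.5 ± 0.6 CPM per kb in DM2 and 324 ± 18 CPM per kb in DM1. In every group but DM3 day 7, Tpm4 alone was above the sum. In DM3 at day 7 troponin C (2302 ± 235 CPM per kb), troponin I (1538 ± 171 CPM per kb) and troponin T all exceeded the sum in mean. For troponin T that excess was smaller than the level of Tpm4. These troponin families also exceeded the sum with the longest transcript as the length, but not without a length correction. Uncorrected, Tpm2 was the highest member there, at 2319 CPM, and Tpm1 had 1441 CPM. The highest troponins had 1994 CPM (Tnnc1), 1966 CPM (Tnni2) and 1576 CPM (Tnnt3). At day 0 tropomyosin was the most abundant family per kb, against 16.8 ± 0.4 CPM per kb for troponin T, 2.94 ± 0.11 for troponin C and 2.04 ± 0.13 for troponin I. Without length correction Tpm1 and Tpm2 were level in DM1 at day 7 (36.2 ± 0.9% and 35.9 ± 0.9%), and the lead of Tpm2 in DM3 stayed (58.6 ± 0.3%). In DM2 at day 7, Tpm2 then held 34.8 ± 0.9%, Tpm1 33.4 ± 1.1% and Tpm3 31.7 ± 0.2%.

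Against day 0, a larger share of the members than of all genes tested was called as higher in each medium and day. In DM3, 7 were higher and 2 lower at day 2, where 50.9% of all genes were called (25.5% higher, 25.4% lower). At day 7, 9 were higher and 1 lower in DM3, where 59% of all genes were called (28.9% higher, 30.1% lower). In DM2, 6 were higher and 3 lower at day 2 (49.7% of all genes called, 23.5% higher and 26.2% lower), and 7 were higher and 3 lower at day 7 (55.4%, of which 24.5% higher and 30.9% lower). In DM1, 7 were higher and 2 lower at day 2 (29.7% of all genes called, 15.2% higher and 14.6% lower), and 7 were higher and 3 lower at day 7 (53.5%, of which 27.7% higher and 25.8% lower). The median log2 fold change of the 10 members was 7.28 in DM3, 2.78 in DM2 and 4.32 in DM1 at day 7, beside 0.03, -0.03 and 0.06 over all genes tested. The 6 slow and fast skeletal troponin genes rose in all 6 comparisons, and Tpm3 fell in all 6. At day 2, the calls of Tnnc1 and Tnnc2 in DM2 and of Tpm3 in DM1 depended on single libraries. The share of all genes called the same way in all 6 was not computed. Without the 3 low-pseudogene libraries fewer members, and fewer of all genes tested, were called at day 2 in each medium. Tpm1 in DM3 was then -0.42, beside -0.44 with them, and was no longer called.

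**Figure D4:**
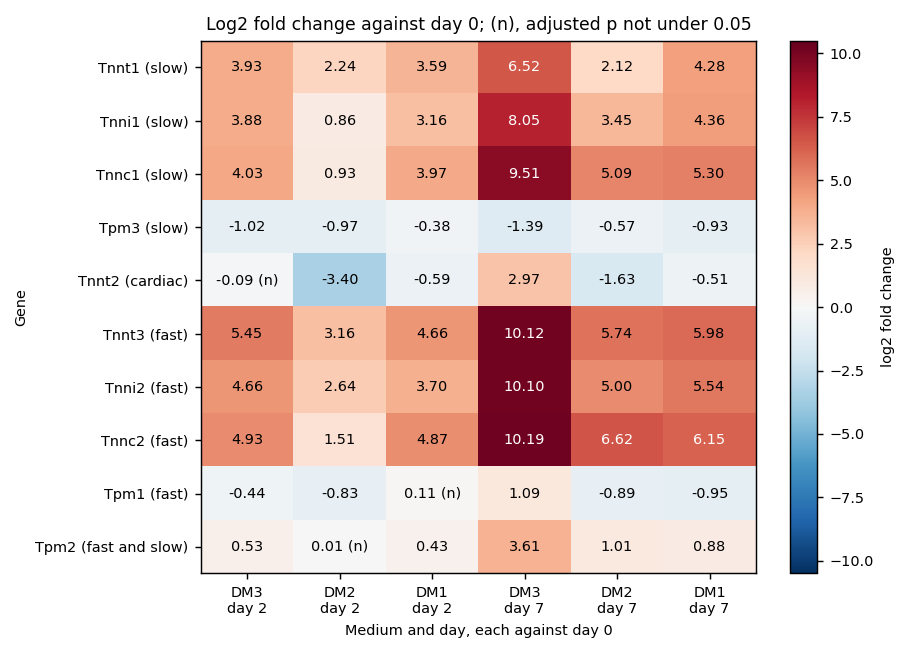
Log2 fold change of each member against day 0 in the 3 media at day 2 and day 7 (colour and number); (n) marks an edgeR adjusted p not under 0.05. Fast troponins reach 10.10 to 10.19 in DM3 day 7, Tnnt2 reaches -3.40 in DM2 day 2, and the Tpm3 row is negative throughout.

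The calls of several smaller changes against day 0 were lost when 1 library was left out, mostly with a fold change of about the same size. In DM1 at day 2, the rise of Tpm2 (0.43 ± 0.11, edgeR adjusted p = 0.013) was not called without day 0 replicate 2 (0.37, adjusted p = 0.101), DM1 day 2 replicate 1 (0.44, adjusted p = 0.0596) or DM1 day 2 replicate 2 (0.41, adjusted p = 0.0761). The fall of Tpm3 there (-0.38 ± 0.10, edgeR adjusted p = 0.00955) was not called without day 0 replicate 1 (-0.31, adjusted p = 0.1) or DM1 day 2 replicate 1 (-0.37, adjusted p = 0.0748). The fall of Tnnt2 there (-0.59 ± 0.14, edgeR adjusted p = 0.00745) was lost without DM1 day 2 replicate 1 (-0.58, adjusted p = 0.0543). In DM1 at day 7, that of Tnnt2 (-0.51 ± 0.14, edgeR adjusted p = 0.00918) was lost without DM1 day 7 replicate 2 (-0.26, adjusted p = 0.076) or with only the 2 groups fitted (-0.57, adjusted p = 0.0776). In DM2 at day 2, the rise of Tnnc1 (0.93 ± 0.24, edgeR adjusted p = 0.0091) was lost without day 0 replicate 1 (0.91, adjusted p = 0.055) or DM2 day 2 replicate 1 (0.47, adjusted p = 0.0874). Tnnc2 moved by over 1.5 times without day 0 replicate 1, to 5.51 in DM3, 2.09 in DM2 and 5.46 in DM1 at day 2, and to 7.21 in DM2 at day 7, beside 4.93, 1.51, 4.87 and 6.62 with it.

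From day 2 to day 7 the members rose most in DM3, where day 7 against day 2 gave 9 higher and 1 lower (47.9% of all genes called, 22.6% higher and 25.3% lower) and a median log2 fold change of 3.62. In DM2 8 were higher and none lower (54.8% of all genes called, 25.4% higher and 29.4% lower), with a median of 2.07. In DM1 7 were higher and 2 lower (34.3% of all genes called, 16.8% higher and 17.5% lower), with a median of 0.95. The steepest in DM3 was Tnnc1, at 5.48 ± 0.26 (edgeR adjusted p = 1.17e-07), and in DM2 Tnnc2, at 5.12 ± 0.34 (edgeR adjusted p = 1.54e-06) or 5.82 without DM2 day 2 replicate 1. In DM1 the steepest was Tnni2, at 1.84 ± 0.20 (edgeR adjusted p = 6.28e-05). Tnnt2 rose in DM2 by 1.78 ± 0.15 (edgeR adjusted p = 1.06e-06), to a level still below day 0. Tpm1 fell in DM1, by 1.06 on the log2 scale (edgeR adjusted p = 3.42e-06). The fall of Tpm3 in DM3, -0.38 ± 0.10 (edgeR adjusted p = 0.00609), was not called without the low-pseudogene libraries (-0.34, adjusted p = 0.0622), nor was its rise in DM2, 0.40 ± 0.10 (edgeR adjusted p = 0.00358), with library totals alone as the scaling (0.14, adjusted p = 0.199). That scaling called Tpm1 lower in DM2 (-0.32, adjusted p = 0.00835), so that 7 members were higher and 1 lower there.

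Calls of 2 other genes in DM1 depended on single libraries. The rise of Tnnt1, 0.68 ± 0.18 (edgeR adjusted p = 0.013), was not called without DM1 day 2 replicate 1 (0.68, adjusted p = 0.0707), DM1 day 2 replicate 2 (0.68, adjusted p = 0.0718) or DM1 day 7 replicate 1 (0.41, adjusted p = 0.125). That of Tpm2, 0.45 ± 0.11 (edgeR adjusted p = 0.00892), was not called without DM1 day 2 replicate 1 (0.43, adjusted p = 0.0664) or DM1 day 7 replicate 1 (0.29, adjusted p = 0.103). Tnnt2, at 0.09 ± 0.14, became called without DM1 day 7 replicate 2 (0.34, adjusted p = 0.0414). The first DM1 day 7 library was above the second in all 10 members.

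DM3 against DM1 tests the adipogenic mixture at the same serum. At day 7, 9 members were higher in DM3 and Tpm3 was lower (47.7% of all genes called, 22.7% higher and 25.1% lower), with a median log2 fold change of 3.58. At day 2, 4 were higher and 2 lower (37% of all genes called, 17.6% higher and 19.4% lower), with a median of 0.22. The 4 were Tnni2 (0.96 ± 0.20), Tnnt3 (0.79 ± 0.18), Tnni1 (0.72 ± 0.11) and Tnnt2 (0.50 ± 0.14), with edgeR adjusted p of 0.00378, 0.00529, 0.000377 and 0.0151. The call for Tnnt2 was lost without DM1 day 2 replicate 1 (0.49, adjusted p = 0.0813), DM1 day 2 replicate 2 (0.51, adjusted p = 0.0688) or DM3 day 2 replicate 2 (0.50, adjusted p = 0.0538). Tpm1 fell by 0.55 and Tpm3 by 0.63 on the log2 scale at day 2 (edgeR adjusted p = 0.000564 and 0.000299), and Tpm1 was higher by 2.04 ± 0.09 at day 7 (edgeR adjusted p = 1.32e-08). Without the low-pseudogene libraries fewer members, and fewer of all genes tested, were called at day 2. Tnni2 (0.87) and Tnnt2 (0.49) were then no longer called.

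DM3 against DM2 sets the 2% horse serum against 10% FCS under the same mixture, so the kind and the amount of serum cannot be told apart. At day 2, 9 members were higher in DM3 and none lower, where 16.3% of all genes were called (9.98% higher, 6.31% lower). Tnnc2 (3.42 ± 0.35), Tnnt2 (3.31 ± 0.16), Tnnc1 (3.10 ± 0.24) and Tnni1 (3.02 ± 0.13) had the largest log2 fold changes, and Tnnc2 gave 4.12 without DM2 day 2 replicate 1. The calls for Tpm1 (0.40 ± 0.09, edgeR adjusted p = 0.0126) and Tpm2 (0.53 ± 0.11, edgeR adjusted p = 0.00824) were lost without DM3 day 2 replicate 2 (0.40 and 0.48, adjusted p = 0.0652 and 0.0613), and that for Tpm1 also without DM2 day 2 replicate 2 (0.31, adjusted p = 0.0607). With only the 2 groups fitted neither was called (adjusted p = 0.182 and 0.107). At day 7, 9 were higher and Tpm3 was lower (52.7% of all genes called, 27.5% higher and 25.2% lower), with a median of 4.39. Tnni2 had the largest excess there, 5.09 ± 0.23 (edgeR adjusted p = 2.83e-08), and Tnnt1, at 4.40 ± 0.21, had an excess close to that of Tnnt3, at 4.38 ± 0.20.

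DM2 against DM1 changes serum and mixture together. At day 2 all 10 members were lower in DM2 (39.4% of all genes called, 17.5% higher and 21.9% lower), with a median of -1.43. The fall was largest in Tnnc2 (-3.36 ± 0.35, and -4.09 without DM2 day 2 replicate 1), Tnnc1 (-3.03 ± 0.24) and Tnnt2 (-2.81 ± 0.15). That of Tpm2 (-0.42 ± 0.11, edgeR adjusted p = 0.0108) was not called without DM1 day 2 replicate 2 (-0.41, adjusted p = 0.0602) or DM2 day 2 replicate 2 (-0.33, adjusted p = 0.0793). At day 7, 4 were lower and 1 higher (57.8% of all genes called, 26.5% higher and 31.4% lower). The 3 lower ones that stayed called under every alternative were slow and cardiac forms, Tnnt1 (-2.16 ± 0.19), Tnnt2 (-1.12 ± 0.14) and Tnni1 (-0.92 ± 0.11), with edgeR adjusted p of 2.98e-06, 3.08e-05 and 2.39e-05. The others were Tnni2 (-0.54 ± 0.20, edgeR adjusted p = 0.0383), lost without DM1 day 7 replicate 1 (-0.18, adjusted p = 0.422), DM2 day 7 replicate 1 (-0.45, adjusted p = 0.183) or DM2 day 7 replicate 2 (-0.62, adjusted p = 0.0827), and Tpm3 (0.36 ± 0.10, edgeR adjusted p = 0.00681), lost without DM1 day 7 replicate 2 (0.24, adjusted p = 0.0815) or DM2 day 7 replicate 2 (0.28, adjusted p = 0.0694). Tnni2 was also not called with the size factors of DESeq2's kind (RLE) in edgeR (adjusted p = 0.0539), with no low-count filter (adjusted p = 0.12) or with only the 2 groups fitted (adjusted p = 0.0781), nor Tpm3 with library totals alone (0.10, adjusted p = 0.349). That scaling called Tnnt3 lower (-0.50, adjusted p = 0.0411), which gave 5 lower and none higher. Tnnc2, at 0.47 ± 0.25, was called without DM1 day 7 replicate 1 (0.86, adjusted p = 0.0171).

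**Figure D5:**
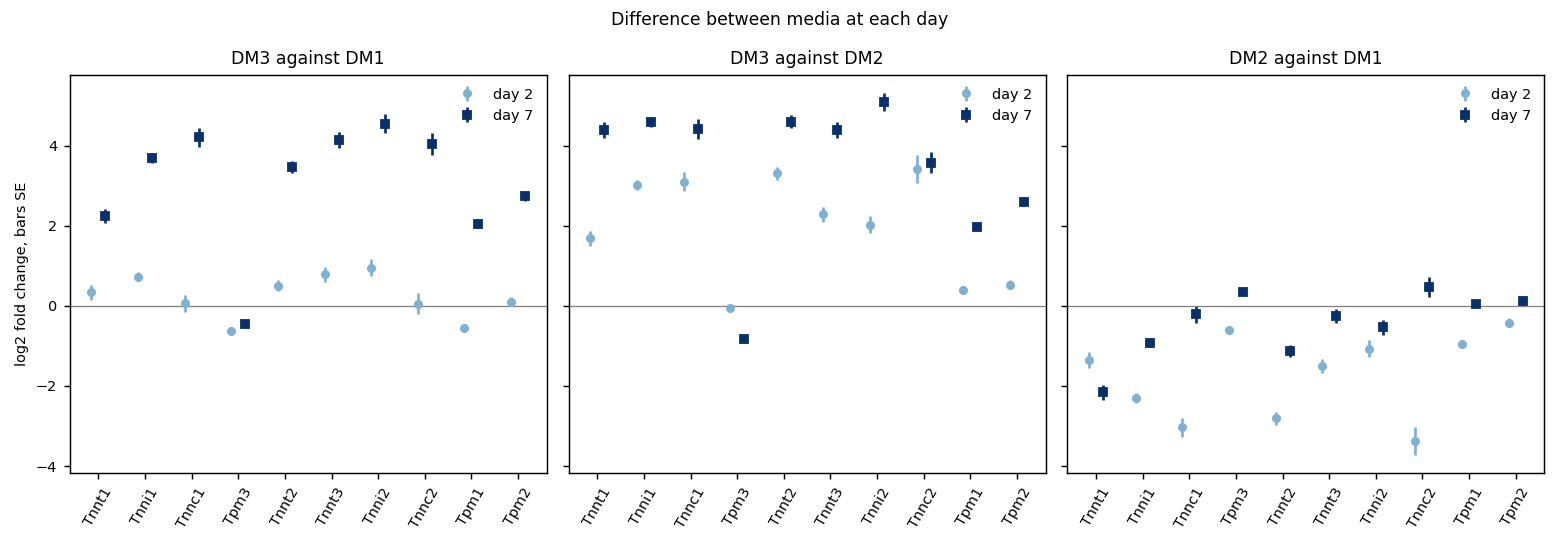
Log2 fold change between media for each member at day 2 (circles) and day 7 (squares); bars are SE. DM3 exceeds DM1 by up to 0.96 at day 2 and up to 4.55 at day 7, whereas DM2 is below DM1 for all 10 members at day 2.

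The difference between media itself changed from day 2 to day 7, by a test of the interaction. For DM3 against DM1, the log2 fold change was higher at day 7 than at day 2 for 9 members (34.9% of all genes called, 16.3% higher and 18.7% lower), by 4.15 ± 0.31 for Tnnc1 (edgeR adjusted p = 9.1e-06) and 1.90 ± 0.25 for Tnnt1 (edgeR adjusted p = 0.000226). Among the 9, Tpm1 was lower in DM3 than in DM1 at day 2 and higher at day 7. For DM3 against DM2, the log2 fold change was higher at day 7 than at day 2 for 8 members and lower for Tpm3 (39.8% of all genes called, 20% higher and 19.8% lower). Tnnc2 was not called, at 0.15 ± 0.48 (edgeR adjusted p = 0.835) and -0.55 without DM2 day 2 replicate 1. For DM2 against DM1 it was higher at day 7 for 8 members and lower for Tnnt1 (49% of all genes called, 23% higher and 26% lower). Tnnt1 there gave -0.81 ± 0.26 (edgeR adjusted p = 0.0261), while Tnnc2 gave 3.83 ± 0.43 (edgeR adjusted p = 7.38e-05), or 4.56 without DM2 day 2 replicate 1. That call for Tnnt1 was lost without DM1 day 2 replicate 1 (-0.80), DM1 day 2 replicate 2 (-0.80), DM1 day 7 replicate 1 (-0.53), DM2 day 7 replicate 1 (-0.71) or DM2 day 2 replicate 1 (-0.50), at adjusted p of 0.0661, 0.0675, 0.0993, 0.0954 and 0.127. Tpm2, at 0.55 ± 0.16 (edgeR adjusted p = 0.0125), was lost without DM1 day 7 replicate 2 (0.41, adjusted p = 0.0535) or DM2 day 7 replicate 2 (0.45, adjusted p = 0.0571), or with library totals alone (0.32, adjusted p = 0.0969). Tnni2, at 0.53 ± 0.28 (edgeR adjusted p = 0.151), was called without DM1 day 7 replicate 1 (0.89, adjusted p = 0.00769) or DM2 day 2 replicate 1 (0.82, adjusted p = 0.0405).

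With each gene's log2(CPM + 1) centred on its own mean over the 14 libraries, the smallest root mean square distances between members were those of Tnni2 and Tnnt3, 0.34, and of Tnnc1 and Tnnc2, 0.39. Each of these 4 was nearest to its partner. Tnni1 was nearest to Tnnc2, at 0.59, Tpm2 to Tpm1, at 0.85, Tnnt1 to Tnni1, at 0.90, and Tnnt2 to Tpm2, at 1.09. Tnnt3 and Tnni2 lie 54.4 kb apart on chromosome 7, Tnnt2 and Tnni1 25.4 kb apart on chromosome 1, and Tnnt1 and Tnni3 1.92 kb apart on chromosome 7. Of the pair on chromosome 1, Tnni1 rose against day 0 in DM2 at day 2 (0.86 ± 0.13, edgeR adjusted p = 0.000162), where Tnnt2 fell, to 11.7 and 10.3 CPM against 117 CPM in both day 0 libraries. Outside the members, Myl1, a myosin light chain of fast fibres, was the nearest profile to Tnni2 (0.46), to Tnnt3 (0.35) and to Tnnc1 (0.33). Mylpf, the regulatory light chain of fast fibres, came second for each of the 3 (0.59, 0.42 and 0.53), and Ckm, muscle creatine kinase, was the fifth for each (0.68, 0.62 and 0.64). The others were Trim72 (0.63) and Myom2 (0.64) for Tnni2, Myom2 (0.51) and Mybph (0.60) for Tnnt3, and Casq2 (0.58) and Myl4 (0.60) for Tnnc1.

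A list of 23 genes of the thin filament and its partners, of which 21 were tested, was set beside the members. This thin filament list also holds Mybpc1 and Mybpc2, whose myosin-binding protein C belongs to the thick filament. In DM3 at day 7, 14 of the 21 were higher and 4 lower than at day 0. Of all genes tested, 28.9% were higher and 30.1% lower. The median log2 fold change of the 21 was 4.85, beside 0.03 over all genes tested. Acta1, skeletal muscle actin, had 12964 ± 614 CPM in DM3 day 7 and 3.52 ± 0.04 CPM at day 0, and Actc1, cardiac actin, 1059 ± 99 CPM and 1.37 ± 1.12 CPM (SD, n = 2). Mybpc1, slow myosin-binding protein C, had 82.2 ± 8.4 CPM in DM3 day 7, against 2 counts in all at day 0, a ratio of 2381 with a 95% interval of 659 to 19669 from counting error. Tpm4, a cytoskeletal tropomyosin, fell as Tpm3 did, to 368 and 340 CPM in DM3 day 7, against 1114 and 1099 CPM at day 0 (log2 fold change -1.64 ± 0.08, edgeR adjusted p = 6.49e-09).

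At day 7, 15 genes of the thin filament list were higher and 3 lower in DM3 than in DM1, at a median of 1.37. In DM3 against DM2, 14 were higher and 2 lower, at a median of 2.57 (0 and 0.01 over all genes tested in these comparisons). Of all genes tested, 22.7% were higher and 25.1% lower in DM3 than in DM1, and 27.5% higher and 25.2% lower in DM3 than in DM2. Against DM1, Mybpc1 (5.71 ± 0.39), Acta1 (4.72 ± 0.19) and Mybpc2, fast myosin-binding protein C (4.50 ± 0.44), changed most. Against DM2, the largest were Mybpc2, with 595 counts in DM3 and 6 in DM2 (a ratio of 108, 95% interval 49.3 to 295 from counting error), Klhl41 (6.64 ± 0.13), a sarcomere assembly protein, and Acta1 (5.73 ± 0.20). DM2 stood below DM1 at day 7 in 14 of the 21 and above it in 2, where 26.5% of all genes were higher and 31.4% lower. The list median was -1.01, beside -0.23 for the 10 members and -0.01 over all genes tested.

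Genes of the slow and fast fibre programmes outside the thin filament both rose. Of 8 other slow fibre genes, 7 were tested and all 7 were higher in DM3 day 7 than at day 0, at a median of 7.74. Of 10 other fast fibre genes, 9 were tested and all 9 were higher, at a median of 6.95, where 28.9% of all genes tested were higher. Casq2, the calsequestrin of slow and cardiac muscle, had 1110 ± 53 CPM in DM3 day 7 and 0.411 ± 0.286 CPM at day 0, and Mb, myoglobin, had 148 ± 4 CPM and 0.137 ± 0.095 CPM (SD, n = 2). Mylpf had 3344 ± 351 CPM and 2.00 ± 0.36 CPM, and Myl1 2043 ± 257 CPM and 2.26 ± 0.04 CPM, in the same groups. In DM3 against DM1 at day 7, 5 of the 7 slow and 5 of the 9 fast genes were higher and none lower (22.7% of all genes tested higher and 25.1% lower), with medians of 2.96 and 1.65. The slow members had a median of 2.96 and the fast members of 4.09 in that comparison. Each set holds a tropomyosin gene below its median, Tpm3 (-0.46) among the slow and Tpm1 (2.04) among the fast members. The difference between the 2 medians was not tested.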

How the data were processed

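Stranded libraries were made from poly(A) RNA and sequenced as single 50 bp reads, per the labels' protocols. Per the submitters' processing notes, reads were aligned with STAR 2.5.1b to GRCm38.p5 and counted with RSEM 1.2.31; the design text names the Gencode vM12 annotation. The deposited table holds the expected counts per gene that RSEM made for the authors, not scaled between libraries. Here the estimated counts were rounded and fitted with edgeR 4.0.16 (R 4.3.3): TMM scaling, filterByExpr by group, and a robust quasi-likelihood test in 1 model of 7 groups with 7 residual degrees of freedom. Benjamini-Hochberg adjustment ran over all 15973 genes tested. The statistics were tested on simulated data first. CPM uses TMM-scaled library totals, and levels per kb use the union of exons in Gencode vM21 (49412 of 49671 identifiers matched). Alternatives were RLE scaling, library totals, no filter, DESeq2 1.42.0, only the groups compared, a replicate block, leaving out each library, leaving out the low-pseudogene libraries, Tpm3 with its copies, and other lengths. The members and lists were chosen with earlier results of these data known. Named genes were all 10 members; from the thin filament list the 3 called genes with the largest fold change per comparison, with Acta1, Actc1, Tnni3 and Tpm4; from the fibre lists the 2 with the largest fold change in DM3 day 7 against day 0 and against DM1 day 7; and the 5 nearest profiles of the 3 members with the widest range. With 2 libraries a group, precision rests on the pooled spread, and intervals cover counting error only.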

Additional observations from a re-analysis of the deposited data

Results flagged for a closer look

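The difference between 2 media was not the same at day 7 as at day 2, by edgeR's interaction test with Benjamini-Hochberg adjustment, for 27 values, all given as log2 (the difference at day 7 minus that at day 2). For DM3 against DM1 the change was 1.90 for Tnnt1, 2.96 for Tnni1, 4.15 for Tnnc1, 3.35 for Tnnt3, 3.60 for Tnni2, 3.99 for Tnnc2, 2.97 for Tnnt2, 2.59 for Tpm1 and 2.63 for Tpm2. All 9 were higher at day 7, Tpm1 from a deficit in DM3 at day 2 to an excess at day 7, and only Tpm3 (0.17) was not called.

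For DM3 against DM2 it was 2.71 for Tnnt1, 1.58 for Tnni1, 1.32 for Tnnc1, 2.09 for Tnnt3, 3.07 for Tnni2, 1.29 for Tnnt2, 1.59 for Tpm1 and 2.08 for Tpm2, and -0.78 for Tpm3. For DM2 against DM1 it was 1.37 for Tnni1, 2.82 for Tnnc1, 0.95 for Tpm3, 1.25 for Tnnt3, 3.83 for Tnnc2, 1.00 for Tpm1, 1.69 for Tnnt2 and 0.55 for Tpm2, and -0.81 for Tnnt1. Tnnt1 was the one member with a called, larger deficit in DM2 at day 7 than at day 2, a call lost on leaving out any of 5 single libraries.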

How the results depend on the processing

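Of 2118 values recomputed per member, 2028 kept direction and call, 64 lost the call, 8 gained it and 18 changed sign. In DM3 day 7 against day 0, DM1 and DM2, all 10 members stayed called under every alternative run. Values that changed sign were not called in either fit, and the largest was -0.55, for Tnnc2 in the day difference of DM3 against DM2. Leaving out 1 library gave ranges of -0.14 to 0.097 for Tpm2 in DM2 day 2 against day 0, -0.22 to 0.34 for Tnnt2 in DM1 day 7 against day 2, -0.35 to 0.16 for Tnnt1 and -0.14 to 0.036 for Tpm1 in DM2 day 7 against day 2, -0.017 to 0.12 for Tnnc2 in DM3 against DM1 at day 2, -0.081 to 0.00065 for Tpm3 in DM3 against DM2 at day 2, and -0.55 to 0.63 for Tnnc2 in the day difference of DM3 against DM2. In DM2 against DM1 at day 7 they were -0.47 to 0.11 for Tnnc1, -0.47 to 0.019 for Tnnt3, -0.037 to 0.16 for Tpm1 and -0.012 to 0.29 for Tpm2, and members called ranged from 3 to 5. With only the groups compared, Tpm2 in DM2 day 2 against day 0 gave -0.0012. Library totals alone gave -0.0028 for Tnnc1 and -0.012 for Tnnc2 in DM3 against DM1 at day 2, -0.20 for Tpm1 and -0.13 for Tpm2 in DM2 against DM1 at day 7, and -0.0013 for Tpm3 in the day difference of DM3 against DM1. That scaling moved the median of all genes by -0.26 to -0.17 in 8 comparisons; the cause was not tested.

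The replicate block kept 179 of 180 values and added the call of Tnnc2 in DM2 against DM1 at day 7 (0.50, edgeR adjusted p = 0.0409), as did DESeq2 (0.52, adjusted p = 0.0263). By replicate number, 3 of 21 group pairs correlated over 0.1, in a range of -0.78 to 0.74. That check bears on the numbering only and cannot exclude a batch shared by libraries of different groups. DM3 day 2 replicate 2 stood apart with 17779 genes detected, against 19698 to 21166 in the other libraries, and the cause was not tested. Depth limits Tnnc2 at day 0 (10 and 5 counts) and in DM2 at day 2. The isoform shares of troponin T, troponin I and tropomyosin depend on the length used, as does the order of the families in DM3 day 7. The tropomyosin shares and sums leave out Tpm4.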
